A study of Mus musculus with 6 samples.

Results

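The mouse genes of glutathione metabolism and of the NRF2 antioxidant response were followed in the B cell lymphoma line A20 before and after it carried an epigenome editor. The group was set by a list of 41 gene symbols, which cover the regulator NRF2 (gene Nfe2l2) and its repressor Keap1, the enzymes of glutathione and thioredoxin metabolism, the peroxiredoxins, the enzymes of NADPH supply and 14 glutathione transferases. All 41 were matched among the 27179 gene identifiers of the count data, and 34 of them were among the 12418 genes that passed the filters and were tested. The rule used gene symbols and no measured value, but the symbols were chosen with earlier results of these data known.

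RNA-seq covered 3 groups with 2 replicates each, all of the BALB/C line A20. The first group was wild-type A20, without any construct. The other groups carried TETact-v3, in which the catalytic domain of the DNA demethylase TET1 is brought to dCas9 by SunTag epitopes and the p65-hsf1 activator by MS2 hairpins of the sgRNA. One of them received a non-targeting control sgRNA and the other an sgRNA to the promoter of Cd4, a T cell gene, and both were collected on day 7 after the sgRNA was transduced. Both TETact-v3 groups therefore share the lentiviral vectors, dCas9, the TET1 domain and the activator, and wild-type cells differ from them by all of these at once, so that the parts of the system cannot be told apart by these data. No group carried the vectors without the editor. The paper's methods also describe enrichment of stable transfectants by cell sorting, with further transduction where needed. Wild-type cells are not described as sorted, so such steps cannot be told apart from the system either. The medium of every group contained β-mercaptoethanol, a thiol reducing agent.

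NRF2 is a transcription factor that KEAP1 holds in the cytoplasm and hands over for degradation. Oxidants and electrophiles modify KEAP1, NRF2 then accumulates, pairs with small MAF proteins and binds antioxidant response elements near genes for glutathione synthesis, quinone and heme breakdown, thioredoxin recycling and NADPH supply. Glutathione transferases join glutathione to electrophiles, and their classes (alpha, mu, pi, theta, omega, zeta and the membrane-bound microsomal proteins) differ in the compounds they take. GSTA4, of the alpha class, is known for its activity towards 4-hydroxynonenal, a product of lipid peroxidation.

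Libraries held between 23194920 and 121623410 counts, and both control sgRNA libraries were the deepest. A count of 3, taken as the floor, equals between 0.027 and 0.14 CPM (counts scaled to a common library size by TMM). The labels were checked by Cd4 itself, which had 30959 and 40422 counts in the Cd4 sgRNA libraries, at most 127 in the control sgRNA libraries and at most 37 in wild type. All 8 B cell markers were counted above the floor in every library, with a summed level of 1843 to 1855 CPM in wild type, 1170 and 1405 CPM with control sgRNA and 1127 to 1179 CPM with Cd4 sgRNA. Of 6 T cell markers without Cd4, 5 were at or under the floor in every library, and the summed level was 0.56 to 0.85 CPM. A list of 6 myeloid markers summed to 234 to 300.2 CPM, with 1 to 3 of them at or under the floor, and a list of 4 fibroblast markers to 1.16 to 1.60 CPM in wild-type and Cd4 sgRNA libraries and 5.36 and 10.03 CPM in the control sgRNA libraries, with 1 to 3 at or under the floor. A list of 4 erythroid markers summed to 21.9 and 22.2 CPM in wild type and 1.95 to 3.63 CPM in the other libraries, with 1 at or under the floor. Cd3e and Col1a2 were at 0 in every library. The myeloid sum was almost all Cd68, which had 231.1 to 293.8 CPM. The rise in the fibroblast sum was mostly Pdgfrb, with 562 and 790 counts in the control sgRNA libraries, and the fall in the erythroid sum mostly Hbb-bs. Whether any of these shifts has a part in the results was not tested.

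The control sgRNA replicates stood apart from each other. Across all tested genes their log2 CPM differed by a median of 0.258, against 0.081 for the wild-type pair and 0.083 for the Cd4 sgRNA pair. Over the 34 tested antioxidant genes the same medians were 0.221, 0.060 and 0.063. Control sgRNA replicate 1 lay 0.093 and 0.112 from the Cd4 sgRNA libraries over these genes, and replicate 2 lay 0.264 and 0.303 from them. The share of mitochondrial counts was 6.63% and 11.5% in control sgRNA replicates 1 and 2. For Cd4 sgRNA it was 5.96% and 6.90%, and for wild type 2.65% and 2.69%. It was thus higher in every TETact-v3 library than in wild type, and its part in the comparisons with wild type was not tested. Results that rest on the control sgRNA group are therefore also given without replicate 2.

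Promoters are shown for the members whose level changed most. The rule took up to 4 members with the largest absolute log2 fold change past the threshold in control sgRNA against wild-type cells, which were Gsta4, Gstm1, Mgst2 and Txn1. The RefSeq promoter table held no entry for Gsta4. For the others the 250 bases before an annotated transcript start are printed from 5′ to 3′ on the gene's strand, with CpG dinucleotides, the substrate of the TET enzymes when methylated, in capitals. They were taken from GRCm38.p6, the build called mm10, at chr3:108017974-108018223 (minus strand) for Gstm1, chr3:51660929-51661178 (plus strand) for Mgst2 and chr4:57956412-57956661 (minus strand) for Txn1.
Gstm1: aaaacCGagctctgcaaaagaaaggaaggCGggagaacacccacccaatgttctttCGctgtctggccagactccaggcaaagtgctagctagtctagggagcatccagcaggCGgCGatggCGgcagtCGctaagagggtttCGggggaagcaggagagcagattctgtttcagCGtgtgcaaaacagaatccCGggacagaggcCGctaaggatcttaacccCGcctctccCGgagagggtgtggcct
Mgst2: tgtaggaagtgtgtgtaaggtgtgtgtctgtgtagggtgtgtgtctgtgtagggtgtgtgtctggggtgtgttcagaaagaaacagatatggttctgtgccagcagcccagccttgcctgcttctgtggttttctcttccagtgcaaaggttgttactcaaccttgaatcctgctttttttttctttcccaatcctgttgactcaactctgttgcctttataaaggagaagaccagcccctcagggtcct
Txn1: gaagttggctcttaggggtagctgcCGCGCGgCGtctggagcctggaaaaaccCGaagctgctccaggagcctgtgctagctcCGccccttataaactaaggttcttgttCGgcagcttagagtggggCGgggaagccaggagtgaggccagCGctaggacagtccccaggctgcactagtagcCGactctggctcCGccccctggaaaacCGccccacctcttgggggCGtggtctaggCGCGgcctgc
The Gstm1 stretch held 13 CpG dinucleotides, the Txn1 stretch 15, and the Mgst2 stretch 0. The last belongs to a start inside the annotated span of Mgst2, which runs from 51636912 to 51682675. Gstm1 had a further annotated start, with the stretch chr3:108017819-108018068, which held 8 CpG dinucleotides. For Gstm1 the stretch with more CpG dinucleotides was printed. The median over 32851 promoters in the table was 6, and 92.1% held at least 1. DNA methylation was not analysed here.

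An antioxidant response element was searched as the letters TGACNNNGC on both strands of the same 250 bases. It was present in 9 of the 35 members that had a promoter (25.7%), against 3112 of 27025 genes in the table (11.5%). The 9 were G6pdx, Gclm, Gsta3, Gstm5, Mgst1, Nfe2l2, Prdx1, Sod1 and Txnrd1. None of the stretches printed for Gstm1, Mgst2 and Txn1 held a match, which says only that these letters are not in those windows. As examples of a match, the promoters of Gclm (chr3:122245307-122245556, plus strand) and Prdx1 (chr4:116685349-116685598, plus strand) are printed with the match in capitals, which lies on the minus strand in both. They were picked after their values were seen, as a glutathione synthesis gene and a peroxiredoxin.
Gclm: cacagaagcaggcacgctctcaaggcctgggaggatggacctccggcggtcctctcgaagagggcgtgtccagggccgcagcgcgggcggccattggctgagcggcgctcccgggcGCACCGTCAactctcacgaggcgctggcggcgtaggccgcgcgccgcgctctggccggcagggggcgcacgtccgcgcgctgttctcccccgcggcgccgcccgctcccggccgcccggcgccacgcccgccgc
Prdx1: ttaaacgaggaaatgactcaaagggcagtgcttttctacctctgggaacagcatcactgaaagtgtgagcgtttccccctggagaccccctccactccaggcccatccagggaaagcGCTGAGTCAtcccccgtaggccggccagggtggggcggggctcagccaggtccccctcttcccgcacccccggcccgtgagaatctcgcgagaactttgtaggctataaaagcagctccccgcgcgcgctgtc
In the fit of all 6 libraries Gclm passed the threshold in no comparison, and Prdx1 was lower in both comparisons against wild type. Without control sgRNA replicate 2 the log2 fold change of Gclm was 0.36 with control sgRNA and 0.34 with Cd4 sgRNA, both against wild type. In the same order it was 0.41 and 0.32 for Nfe2l2, 0.16 and 0.36 for Txnrd1 and 0.06 and 0.06 for G6pdx. For Sod1 it was -0.07 and -0.17, and for Prdx1 -0.40 and -0.43. Whether the match is related to these values was not tested. Of the 9 genes with a match, Gsta3, Gstm5 and Mgst1 were not tested.

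In wild-type cells the antioxidant genes were mostly highly expressed. By RPKM, the level per kilobase of exon, Sod1 (cytosolic superoxide dismutase) led with a mean of 751, above 99.3% of tested genes. It was followed by Hmox1 (heme oxygenase) at 516, Tkt (transketolase of the pentose phosphate pathway) at 406, Gpx1 (glutathione peroxidase) at 388 and Txn1 (thioredoxin) at 357. The transferases ranged widely. Gstt2, of the theta class, had 238 RPKM and Gstp1, of the pi class, 106.5 RPKM, whereas Gsto1, Mgst2, Gstz1 and Gsta4 lay between 14.9 and 21.5 RPKM. Mgst3, Gstt1 and Gstm1 had 1.82, 0.58 and 0.34 RPKM. Nqo1, a quinone reductase that is a classical NRF2 target, was also low at 0.68 RPKM, above 15.9% of tested genes.

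**Figure D1:**
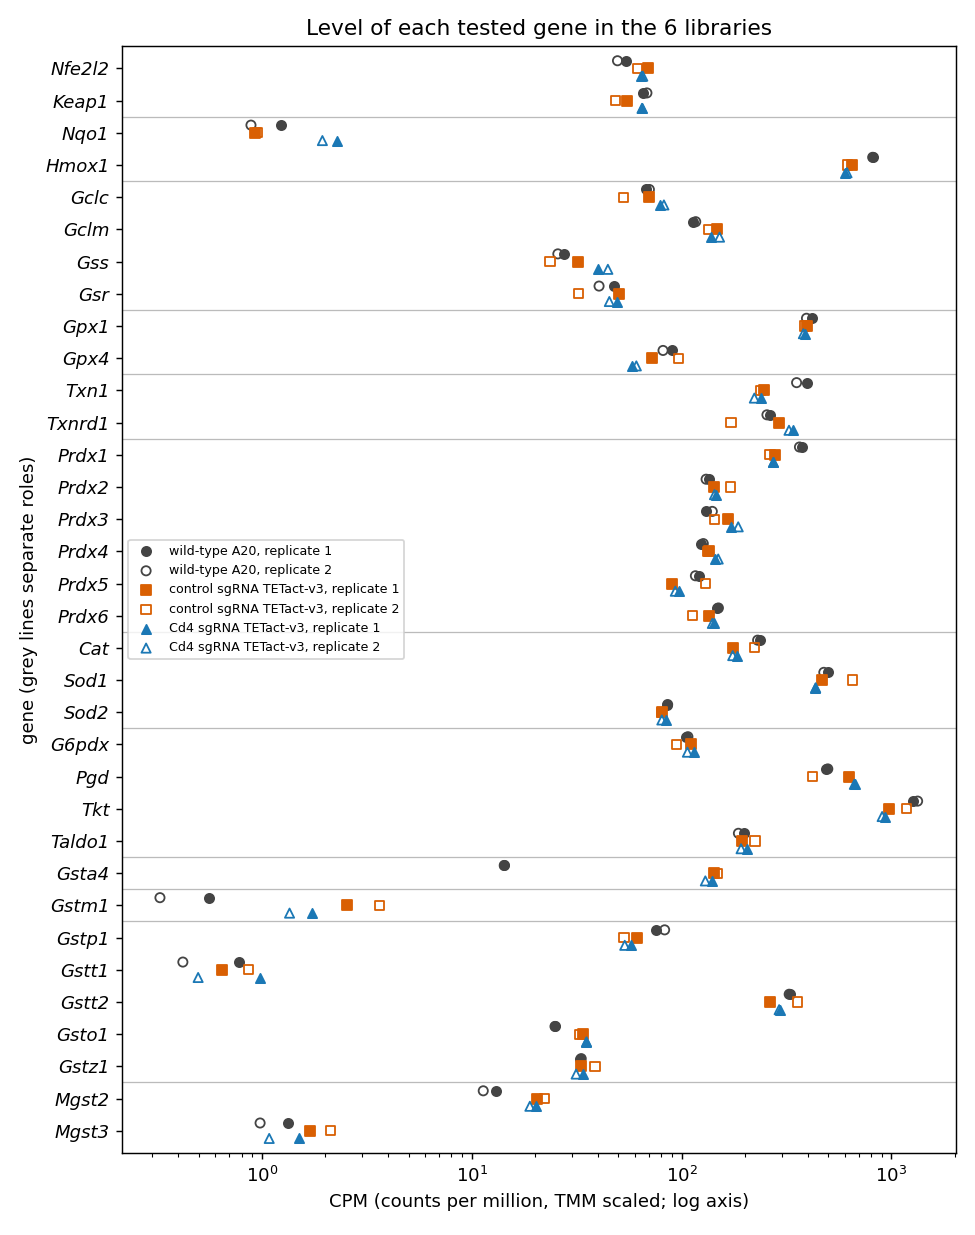
Level of each of the 34 tested genes in CPM on a log axis, one row per gene, with grey lines between roles. Colours and shapes mark the groups, and filled and open symbols mark replicates 1 and 2. The Gsta4 row shows the wild-type libraries at 14.3 CPM and the other 4 libraries between 129.8 and 147.6 CPM.

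The 7 genes that were not tested were low in every library. Gsta1, Gsta3, Gstm5 and Mgst1 were counted 0 times in each. Srxn1 (sulfiredoxin) was counted once, in control sgRNA replicate 2, and Gsta2 once, in Cd4 sgRNA replicate 2. For these 6 genes a count of 0 allows a level of up to 0.027 CPM in the deepest library and up to 0.14 CPM in the shallowest. Me1 (malic enzyme) was counted 8 and 1 times in wild type, 14 and 16 times with control sgRNA and 6 and 11 times with Cd4 sgRNA.

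The first comparison asks what A20 cells with the system and a non-targeting sgRNA express differently from wild-type cells. Control sgRNA cells had about 10 times the Gsta4 RNA of wild-type cells, more Gstm1, Mgst2 and Gsto1, and less Txn1, Gstp1, Prdx1, Keap1 and Hmox1. In bulk RNA, a change in the share of cells that express a gene and a change in RNA per cell cannot be told apart. At an adjusted p under 0.05 in edgeR's quasi-likelihood test (Benjamini-Hochberg adjusted over all genes), 4 members of the 34 were higher (11.8%) and 5 were lower (14.7%). Among all 12418 tested genes 14.5% were higher and 13.5% lower, so that the members were called about as often as other genes. Their median log2 fold change was -0.04, against -0.0012 over all genes tested. All 4 higher members were glutathione transferases, of which 9 of 14 were tested. Of 10 further transferases and related enzymes that were tested but are not among the 41, 1 was higher and 2 were lower with control sgRNA, and 0 were higher and 3 lower with Cd4 sgRNA. The other 25 tested members held none of the higher calls and 4 of the lower ones.

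Gsta4, on chromosome 9 from 78191966 to 78209349, was counted 664 and 306 times in wild type, 15878 and 11939 times with control sgRNA and 4593 and 5747 times with Cd4 sgRNA. These counts equal 14.3 and 14.3 CPM, 142.9 and 147.6 CPM, and 140.2 and 129.8 CPM. The TETact-v3 libraries all lay far above wild type, and the control and Cd4 sgRNA values did not overlap by a small margin. The log2 fold change against wild type was 3.35 with control sgRNA (SE 0.095, adjusted p = 0.000103 from edgeR's test), which is 10.2-fold. With Cd4 sgRNA it was 3.24 (SE 0.095, adjusted p = 6.54e-05 from edgeR's test), which is 9.44-fold. Both calls held in all 16 alternative settings, with values from 3.32 to 3.39 and from 3.19 to 3.29 and an adjusted p of at most 0.00961 and 0.00844. No stretch of 66 bases, the read length, of its protein-coding GENCODE transcripts was shared with another gene.

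Gstm1, a mu class transferase on chromosome 3 from 108012250 to 108017973, was near the floor in wild type. It was counted 26 and 7 times there, 283 and 295 times with control sgRNA and 57 and 60 times with Cd4 sgRNA, or 0.56 and 0.33 CPM, 2.55 and 3.65 CPM, and 1.74 and 1.36 CPM. The 3 groups did not overlap, and the Cd4 sgRNA libraries lay between the others. Against wild type the log2 fold change was 2.66 with control sgRNA (SE 0.385, adjusted p = 0.0066 from edgeR's test), a 6.32-fold difference, and 1.66 with Cd4 sgRNA (SE 0.464, adjusted p = 0.0526), which missed the threshold. The difference of Cd4 sgRNA from control sgRNA cells, -1.005, missed it too (SE 0.290, adjusted p = 0.145 from edgeR's test). Of the 66-base stretches in its transcripts, 14.6% also occur in Gstm3 or in related pseudogenes, so that its counts can include or miss such reads.

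Mgst2, a microsomal transferase on chromosome 3 that can also form leukotriene C4, had 13.1 and 11.4 CPM in wild type, 20.6 and 22.3 CPM with control sgRNA and 20.1 and 18.9 CPM with Cd4 sgRNA. Both TETact-v3 groups lay above wild type without overlap. The log2 fold change was 0.80 (SE 0.122, adjusted p = 0.00751) with control sgRNA and 0.66 (SE 0.126, adjusted p = 0.0185) with Cd4 sgRNA, both by edgeR's test. Gsto1, of the omega class, which reduces dehydroascorbate and glutathione-bound thiols, had 25.1 and 24.9 CPM in wild type, 33.96 and 32.78 CPM with control sgRNA and 34.9 and 35.2 CPM with Cd4 sgRNA. The log2 fold changes of Gsto1 were 0.42 (SE 0.088, adjusted p = 0.0189) and 0.49 (SE 0.090, adjusted p = 0.0173) by edgeR's test. The span of Mgst2 overlaps that of Gm38247 in RefSeq, and whether the counting used strand is not stated.

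Gstp1, the pi class transferase, moved the other way. It had 75.4 and 83.0 CPM in wild type, 61.6 and 53.2 CPM with control sgRNA and 57.4 and 53.6 CPM with Cd4 sgRNA, with no overlap between wild type and the others. Its log2 fold change was -0.46 (SE 0.109, adjusted p = 0.0266) with control sgRNA and -0.51 (SE 0.111, adjusted p = 0.0262) with Cd4 sgRNA by edgeR's test. Of its 66-base stretches 46.8% occur also in Gstp2 or a pseudogene, so that these counts are uncertain between the copies. The remaining tested transferases, Gstt1, Gstt2, Gstz1 and Mgst3, passed the threshold in no comparison of the fit of all libraries, with log2 fold changes against wild type between -0.16 and 0.65. Gstt1 was counted 9 to 72 times and Mgst3 21 to 189 times.

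Summed per length, the 14 listed transferases made up a different mixture of RNA in the TETact-v3 cells. The shares depend on this list, which leaves out other expressed transferases. Gstt3, for example, had a mean of 58.9 RPKM in wild type, 100.7 with control sgRNA and 71.8 with Cd4 sgRNA. Gsta4 took 3.57% and 3.53% of the summed RPKM of the 14 transferases in the wild-type libraries, 29.3% and 26.6% in control sgRNA cells and 28% and 27% in Cd4 sgRNA cells. The share of Gstt2 was 57.2% and 56.2% in wild type, 37.8% and 45.2% in control sgRNA cells and 41.1% and 42.5% in Cd4 sgRNA cells. Its own mean level in these groups was 238.3, 226.9 and 213.8 RPKM and passed the threshold in no comparison of the fit of all libraries. The share of Gstp1 was 24.2% and 26.4% in wild type and between 12.4% and 16.3% in the others. The sum itself was 417.9 and 423.0 RPKM in wild type, 509.5 and 578.2 RPKM with control sgRNA and 523.1 and 501.1 RPKM with Cd4 sgRNA. Every TETact-v3 library was thus above both wild-type libraries, while an exact permutation test of 2 libraries and 2 others reaches no lower than 0.333, so that no test of the sum or of the shares was made.

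**Figure D2:**
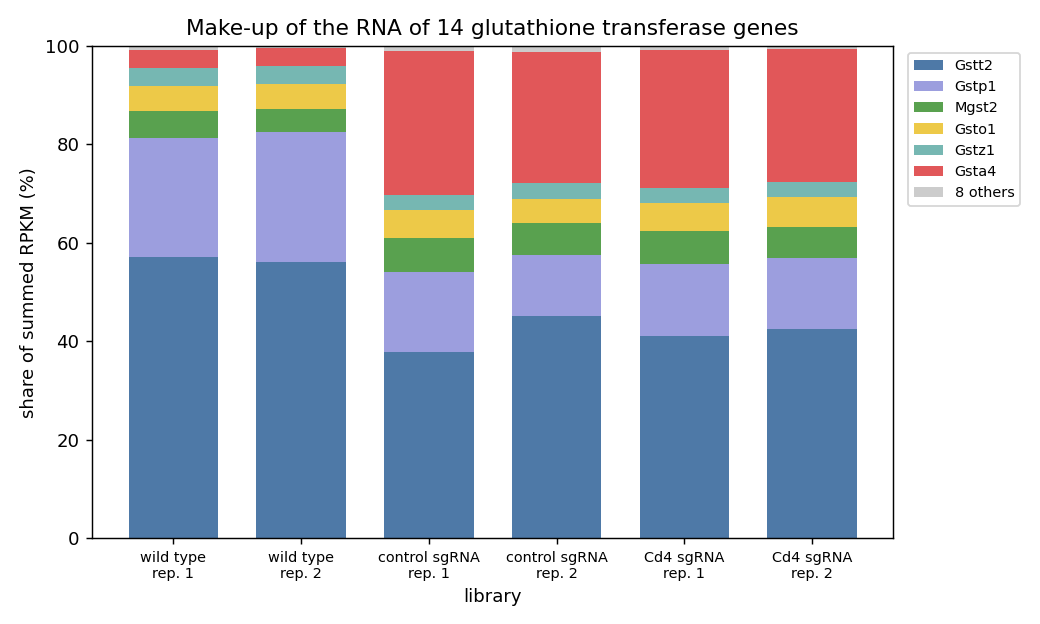
Share of each gene in the summed RPKM of 14 glutathione transferases, one stacked bar per library in percent. Genes that reach 2% in any library have a colour and the 8 others are grey. The red part, Gsta4, takes 3.53% to 3.57% in wild type and 26.6% to 29.3% in the other libraries.

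NRF2 itself was not called in the fit of all libraries. Nfe2l2 had 54.2 and 49.5 CPM in wild type, 69.0 and 61.4 CPM with control sgRNA and 64.4 and 65.4 CPM with Cd4 sgRNA, so that all TETact-v3 libraries were above wild type. Its log2 fold change was 0.33 (SE 0.099, adjusted p = 0.0522) and 0.32 (SE 0.100, adjusted p = 0.0686) by edgeR's test. Without control sgRNA replicate 2 Nfe2l2 was called higher in both comparisons, with 0.41 (adjusted p = 1.92e-05) and 0.32 (adjusted p = 7.68e-05) in edgeR's test, in a fit that called 59.9% and 59.7% of all genes. Keap1 had 65.4 and 68.4 CPM in wild type, 55.2 and 48.5 CPM with control sgRNA and 64.6 and 64.8 CPM with Cd4 sgRNA. It was lower with control sgRNA (log2 fold change -0.37, SE 0.096, adjusted p = 0.0354 from edgeR's test) and not called with Cd4 sgRNA (-0.05, SE 0.097, adjusted p = 0.749). The call of Keap1 was lost in 6 of 16 alternatives, among them a fit of these 2 groups alone (adjusted p = 0.103 in edgeR's test) and a replicate block (adjusted p = 0.0582). Cd4 sgRNA against control sgRNA cells differed by 0.32 in Keap1, with an adjusted p of 0.149 from edgeR's test, so that a difference between the TETact-v3 groups was not shown.

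Of the enzymes that break down quinones and heme, Hmox1 fell and Nqo1 did not pass the threshold. Hmox1 had 813.5 and 814.2 CPM in wild type, 648.0 and 618.0 CPM with control sgRNA and 601.3 and 614.4 CPM with Cd4 sgRNA. Its log2 fold change was -0.36 (SE 0.082, adjusted p = 0.0225) and -0.42 (SE 0.082, adjusted p = 0.0196) by edgeR's test. Nqo1 was counted 57 and 19 times in wild type, 103 and 77 times with control sgRNA and 75 and 86 times with Cd4 sgRNA, or 1.23 and 0.89 CPM, 0.93 and 0.95 CPM, and 2.29 and 1.94 CPM. Only the Cd4 sgRNA libraries stood above the rest. The log2 fold change of Nqo1 in Cd4 sgRNA cells was 0.92 against wild type (SE 0.265, adjusted p = 0.0557) and 1.16 against control sgRNA (SE 0.227, adjusted p = 0.113), both short of the threshold in edgeR's test.

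Thioredoxin had the largest fall of the members called in both comparisons with wild type. Txn1 had 397.6 and 353.3 CPM in wild type, 247.2 and 236.8 CPM with control sgRNA and 238.4 and 222.2 CPM with Cd4 sgRNA, without overlap between wild type and the others. The log2 fold change was -0.63 (SE 0.097, adjusted p = 0.00734) and -0.71 (SE 0.097, adjusted p = 0.00813) by edgeR's test. Its reductase Txnrd1 had 263.1 and 255.2 CPM in wild type, 289.7 and 172.1 CPM with control sgRNA and 337.9 and 325.0 CPM with Cd4 sgRNA. The control sgRNA replicates of Txnrd1 lay on both sides of wild type. It passed the threshold in neither comparison with wild type in the fit of all libraries (adjusted p = 0.613 and 0.301 in edgeR's test).

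Of the peroxiredoxins, thiol peroxidases most of which thioredoxin recycles, Prdx1 fell in both comparisons. It had 374.4 and 364.6 CPM in wild type, 279.8 and 263.7 CPM with control sgRNA and 272.3 and 274.1 CPM with Cd4 sgRNA, with log2 fold changes of -0.44 (SE 0.082, adjusted p = 0.0126) and -0.44 (SE 0.082, adjusted p = 0.0181) by edgeR's test. Prdx3, the mitochondrial peroxiredoxin, had 130.7 and 140.1 CPM in wild type, 165.6 and 143.7 CPM with control sgRNA and 172.2 and 186.2 CPM with Cd4 sgRNA. It was higher with Cd4 sgRNA (log2 fold change 0.41, SE 0.105, adjusted p = 0.0423 from edgeR's test) and not called with control sgRNA (0.19, SE 0.105, adjusted p = 0.209). The call of Prdx3 was lost in 6 of 16 alternatives, among them no expression filter (adjusted p = 0.0517 in edgeR's test) and a replicate block (adjusted p = 0.0711). Prdx2, Prdx4, Prdx5 and Prdx6 passed in no comparison of the fit of all libraries. The span of Prdx1 overlaps that of AV051173.

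In glutathione synthesis, Gss, the synthetase of the last step, was higher with Cd4 sgRNA. It had 27.5 and 25.7 CPM in wild type, 32.2 and 23.6 CPM with control sgRNA and 40.0 and 44.6 CPM with Cd4 sgRNA. The log2 fold change was 0.67 against wild type (SE 0.167, adjusted p = 0.0387) and 0.60 against control sgRNA (SE 0.161, adjusted p = 0.135), by edgeR's test. The call against wild type was lost in 5 of 16 alternatives, among them the study's own method, voomLmFit of limma (adjusted p = 0.0573). Gclc and Gclm, the subunits of the rate-limiting ligase, and the reductase Gsr had log2 fold changes between -0.16 and 0.34 against wild type and were not called in the fit of all libraries. Gclm came closest, with 113.2 and 116.8 CPM in wild type, 147.6 and 134.1 CPM with control sgRNA and 138.5 and 151.7 CPM with Cd4 sgRNA (adjusted p = 0.0622 and 0.052 in edgeR's test). The span of Gss overlaps that of Gssos2.

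The peroxidases Gpx1 and Gpx4, catalase (Cat) and the superoxide dismutases Sod1 and Sod2 were not called in any comparison of that fit. Gpx4, which reduces lipid peroxides in membranes, had 89.7 and 81.6 CPM in wild type, 72.0 and 96.3 CPM with control sgRNA and 58.2 and 60.9 CPM with Cd4 sgRNA (log2 fold change of Cd4 sgRNA against wild type -0.53, SE 0.151, adjusted p = 0.0557 from edgeR's test). The Cd4 sgRNA libraries were the lowest, and 48.1% of its 66-base stretches are shared with Gpx4-ps2 or another locus. For Sod1 15.1% are shared with Gm8566. Of the pentose phosphate genes, which serve NADPH supply, Tkt was lower with Cd4 sgRNA, with 1274 and 1333 CPM in wild type, 972.1 and 1183 CPM with control sgRNA and 933.6 and 903.1 CPM with Cd4 sgRNA. Its log2 fold change was -0.51 (SE 0.116, adjusted p = 0.0308) with Cd4 sgRNA and -0.27 (SE 0.116, adjusted p = 0.123) with control sgRNA by edgeR's test. G6pdx, Pgd and Taldo1 had values between -0.05 and 0.44 against wild type and were not called.

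The second comparison asks the same of the cells with the Cd4 sgRNA. It uses the same wild-type libraries as the first, so both sets of values share that error. Of the 34 tested members 5 were higher and 5 lower (14.7% each), against 9.85% and 10.7% of all tested genes. The higher ones were Gsta4, Mgst2, Gss, Gsto1 and Prdx3, and the lower ones Txn1, Gstp1, Tkt, Prdx1 and Hmox1. The median log2 fold change of the members was 0.06, against 0.0045 over all genes tested.

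**Figure D3:**
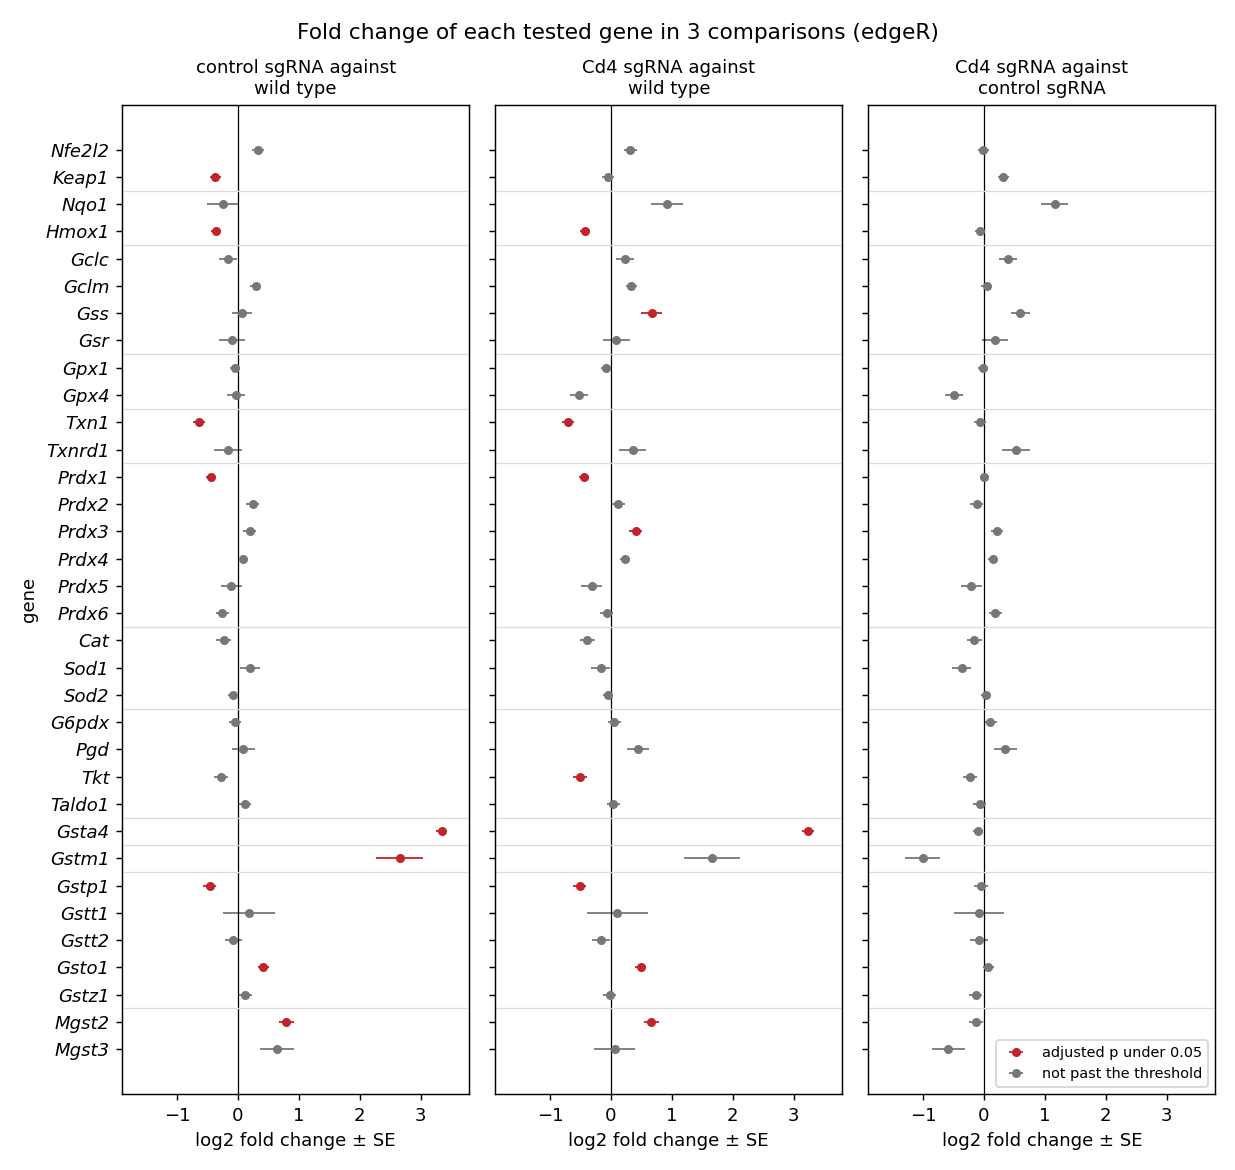
Log2 fold change with its standard error for each of the 34 tested genes in 3 comparisons, in the order of roles used for the levels. Red points passed an adjusted p of 0.05 in edgeR's quasi-likelihood test. Gsta4 lies at 3.35 and 3.24 in the comparisons against wild type and at -0.11 between the TETact-v3 groups, where no point is red.

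The third comparison asks what the Cd4 sgRNA changes beyond the system itself. No member passed the threshold in edgeR's test, against 0.0242% of all genes higher and 0.0483% lower. At an unadjusted p under 0.05 there were 6 members of 34, beside 24.9% of all genes. DESeq2 called 3 members, which were Gss (log2 fold change 0.60, adjusted p = 0.0178), Nqo1 (1.17, adjusted p = 0.0262) and Gpx4 (-0.50, adjusted p = 0.0342), while it called 11.3% of all genes. The alternative voomLmFit called 0 members, beside 0.0564% of all genes. Gsta4 differed by -0.11 (SE 0.083, adjusted p = 0.429 from edgeR's test).

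The control sgRNA replicates differed in many of these genes, as they did over all tested genes. Their median difference on the log2 scale was 0.221 over the members and 0.258 over all tested genes. The counts that follow were made for the members only. Of the 34 members 13 differed by over 0.3 on the log2 scale between the control sgRNA replicates, against 3 in the Cd4 sgRNA pair and 4 in the wild-type pair. For 10 members the control sgRNA replicates lay on opposite sides of the wild-type mean. Txnrd1, Gsr, Pgd, Gss and Gclc were higher in replicate 1, by 0.75, 0.65, 0.59, 0.45 and 0.41 on the log2 scale. Replicate 2 was the higher one for Prdx5, Gstm1, Sod1, Gstt2, Gpx4 and Gstt1, with differences of replicate 1 minus replicate 2 of -0.53, -0.52, -0.49, -0.44, -0.42 and -0.42. Replicate 1 was on the same side of wild type as both Cd4 sgRNA libraries for 29 members and replicate 2 for 19.

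**Figure D4:**
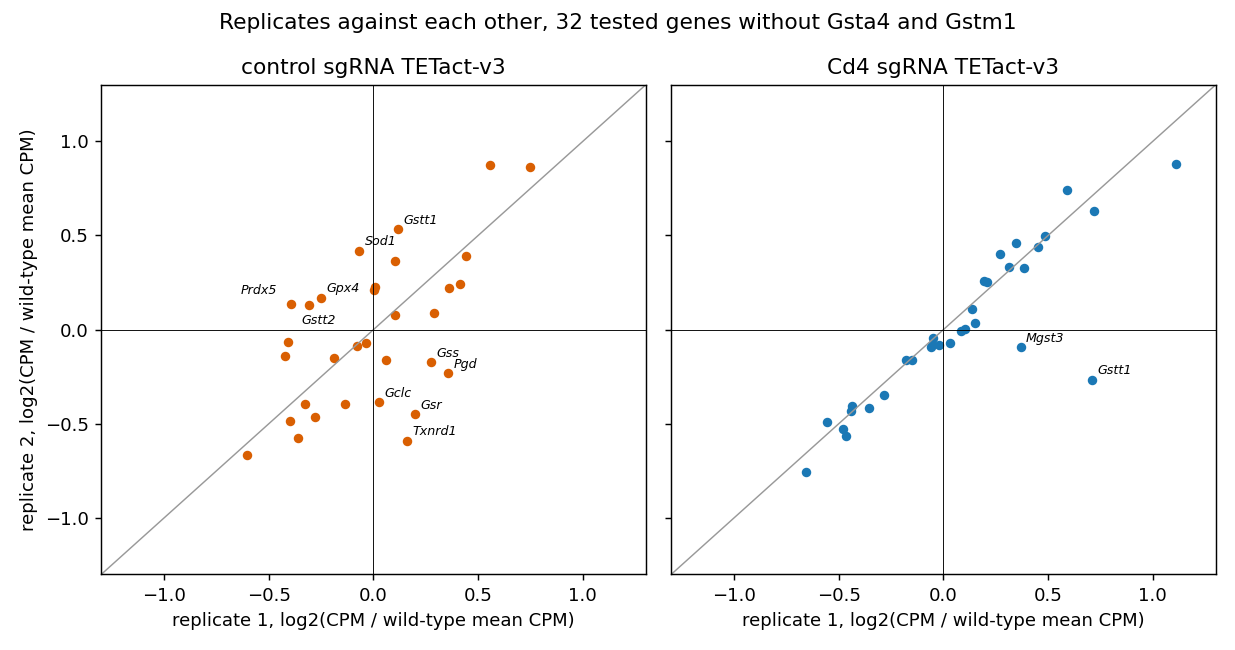
Each point is 1 of 32 tested genes (Gsta4 and Gstm1 left out for scale), with log2 of CPM over the wild-type mean in replicate 1 on the x axis and replicate 2 on the y axis, for control sgRNA on the left and Cd4 sgRNA on the right. Points on the grey line are equal in both replicates. Named genes differ by over 0.4, such as Txnrd1 with 0.75 between the control sgRNA replicates.

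Without control sgRNA replicate 2 the lone control library is taken to vary like the other groups. In that fit 20 of 35 tested members were called between control sgRNA and wild type, beside 59.9% of all genes, and 24 of 35 between Cd4 sgRNA and wild type, beside 59.7%. Beside the calls of the full fit, those added between control sgRNA and wild type were Gclm, Gss, Nfe2l2, Pgd, Prdx3 and Txnrd1 as higher and Cat, Gpx4, Gstt2, Prdx5 and Tkt as lower. Those added between Cd4 sgRNA and wild type were Gclc, Gclm, Gstm1, Nfe2l2, Nqo1, Pgd, Prdx2, Prdx4 and Txnrd1 as higher and Cat, Gpx4, Gstt2, Prdx5 and Sod1 as lower. Between Cd4 and control sgRNA 7 of 35 were called, beside 24.9%, namely Gclc, Gss, Keap1, Nqo1 and Txnrd1 higher and Gpx4 and Gstm1 lower with Cd4 sgRNA. These counts are 57.1%, 68.6% and 20% of the members. Without either wild-type library Gsta4 was the 1 member that remained called in both comparisons with wild type, by edgeR's test, while 0.636% to 3.08% of all genes were called. The calls of Gstm1, Mgst2 and Txn1 in control sgRNA cells were lost there, with an adjusted p of up to 0.0895, 0.0783 and 0.111 in edgeR's test. The other calls were lost as well without either Cd4 sgRNA library, and those of Keap1, Hmox1, Prdx1, Gstp1 and Gsto1 in control sgRNA cells also in a fit of these 2 groups alone. The direction of the 19 calls against wild type was the same in every alternative.

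A further 79 genes of the same pathways were read as a list beside the members, of which 63 were tested. In control sgRNA against wild-type cells 6 were higher (9.52%) and 14 lower (22.2%), beside 14.5% and 13.5% of all genes. In Cd4 sgRNA against wild-type cells 7 were higher (11.1%) and 13 lower (20.6%), beside 9.85% and 10.7%. Between the TETact-v3 groups 0 passed in edgeR's test, with 18 at an unadjusted p under 0.05 and 5 called by DESeq2, which called 11.3% of all genes. Their median log2 fold changes against wild type were -0.01 and -0.18. No test of the list was made.

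H6pd, which makes NADPH in the endoplasmic reticulum, rose from 25.0 and 25.7 CPM in wild type to 72.2 and 66.4 CPM with control sgRNA and 66.4 and 66.9 CPM with Cd4 sgRNA. Its log2 fold change was 1.45 (SE 0.091, adjusted p = 0.000783) and 1.40 (SE 0.091, adjusted p = 0.00114) by edgeR's test. Gstk1, the kappa class transferase, fell from 145 and 68 counts in wild type to 51 and 61 counts with control sgRNA and 15 and 11 counts with Cd4 sgRNA, in libraries of different depth. In CPM these were 3.12 and 3.18, 0.46 and 0.75, and 0.46 and 0.25, with log2 fold changes of -2.41 (SE 0.295, adjusted p = 0.00422) and -3.21 (SE 0.395, adjusted p = 0.00627) by edgeR's test. Chac1, which degrades glutathione, fell by 1.05 on the log2 scale with control sgRNA and had a log2 fold change of -1.41 with Cd4 sgRNA (adjusted p = 0.00625 and 0.0049 in edgeR's test), whereas its relative Chac2 was higher in both, by 0.73 and 0.73 (adjusted p = 0.0178 and 0.0275).

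Among the other genes the rule named, Mafk, a small MAF partner of NRF2, fell from 48.9 and 50.1 CPM in wild type to 25.2 and 17.1 CPM with control sgRNA and 29.3 and 31.5 CPM with Cd4 sgRNA (adjusted p = 0.00735 and 0.0453 in edgeR's test). Rpia, an isomerase of the pentose phosphate pathway, fell by 0.55 and 0.69 on the log2 scale (adjusted p = 0.0101 and 0.0082 in edgeR's test). Abcc1, an exporter of glutathione conjugates, and Gstt3, another theta class transferase, were higher with control sgRNA, by 0.61 and 0.77 (adjusted p = 0.00987 and 0.0107 in edgeR's test). In Cd4 sgRNA cells they had 0.35 and 0.29, with an adjusted p of 0.060 and 0.172. Nadk, the kinase that makes NADP, was higher in both, by 0.35 and 0.52 (adjusted p = 0.0438 and 0.0189 in edgeR's test).

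Neighbouring genes were read to see whether the rise of the leading transferases was shared along the chromosome. Within 500 kb of Gsta4 lay 21 genes, of which 13 were tested. With control sgRNA 3 of them were higher (Elovl5, Cilk1 and Mto1, with log2 fold changes of 0.50, 0.45 and 0.71) and 2 lower (Fbxo9 and Cgas, with -1.48 and -1.72). Of all tested genes 14.5% were higher and 13.5% lower in that comparison. With Cd4 sgRNA Mto1 was higher (0.72) and Cgas and Eef1a1 lower (-2.28 and -0.45), beside 9.85% and 10.7% of all tested genes. Gsta1, at 21.3 kb, was counted 0 times in all libraries, and Gsta2, at 122 kb, at most once. Gclc, at 397 kb, was not called. The highest values among the tested neighbours were those of Dppa5a, 1.58 and 1.78, which rest on at most 23 counts and missed the threshold.

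Within 500 kb of Gstm1 lay 31 genes, of which 15 were tested. With control sgRNA 2 were higher (Sort1 and Psrc1) and 3 lower (Csf1, Gnai3 and Cyb561d1), beside 14.5% and 13.5% of all tested genes. With Cd4 sgRNA 0 were higher and 2 lower (Csf1 and Cyb561d1), beside 9.85% and 10.7%. The other mu class genes of the cluster, Gstm2, Gstm3, Gstm5, Gstm6 and Gstm7, were counted at most 2 times in any library. Gstm4, at 12.6 kb, reached 1399 counts, and its log2 fold changes against wild type were 0.69 (adjusted p = 0.19 from edgeR's test) with control sgRNA and -0.21 (adjusted p = 0.73) with Cd4 sgRNA.

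**Figure D5:**
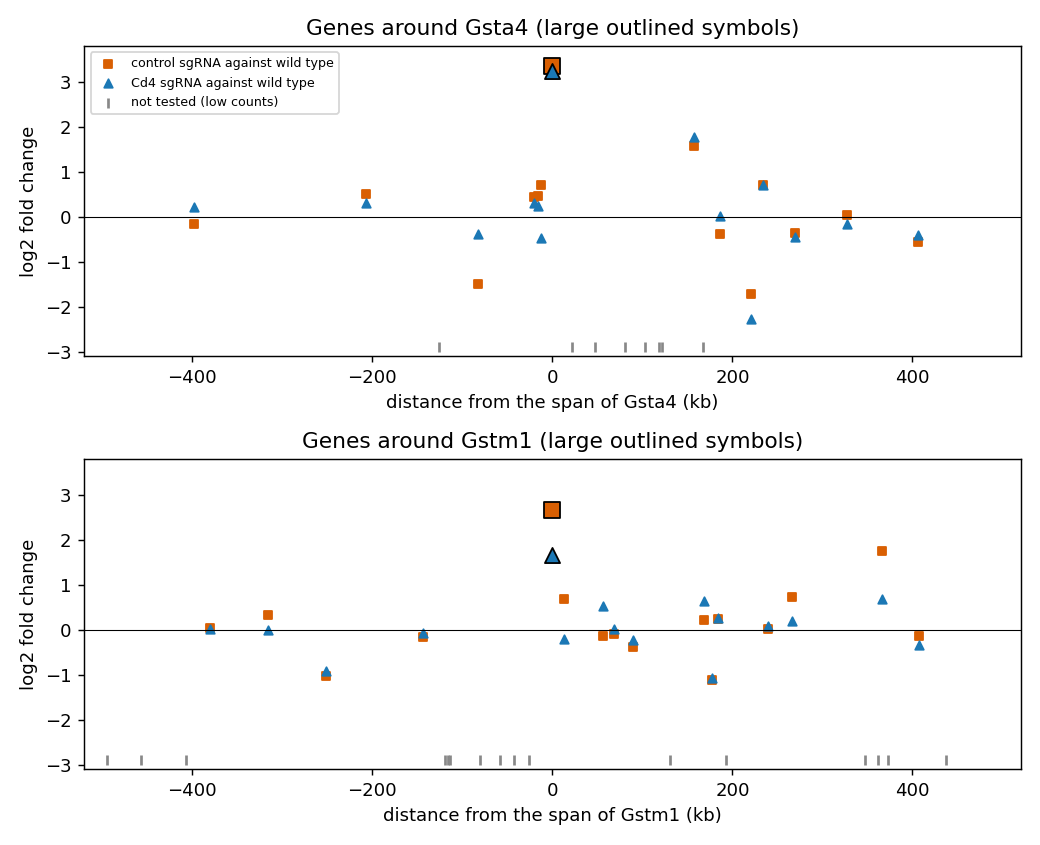
Log2 fold change against wild type of tested genes within 500 kb of Gsta4 (top) and Gstm1 (bottom), by distance in kb from the gene's span. Orange squares are control sgRNA, blue triangles Cd4 sgRNA, large outlined symbols the central gene, and grey ticks genes that were not tested. Gsta4, taken as a centre for its large rise, lies at 3.35 and 3.24, above all of its 13 tested neighbours.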

How the data were processed

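RNA-seq of 6 libraries of the mouse line A20 was analysed, in 3 groups of 2 replicates given by the sample labels. The authors mapped 66 bp read pairs to mm10 (Rsubread) and ran featureCounts per Entrez identifier, and the deposited values are its raw counts, with no normalization. The deposited exon length of each gene, from the same counting, was used for RPKM, and no other column held values of a sample. Whether the counting used strand is not stated. The methods describe the libraries as made from independently repeated samples.

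Symbols and gene positions were read from the RefSeq annotation of GRCm38.p6. Identifiers that failed filterByExpr with default settings, had no symbol or a duplicated one, or were mitochondrial, ribosomal RNA or of type other were left out, and 12418 genes remained. CPM and RPKM were computed from the counts with TMM factors. The test was edgeR 4.0.16 (glmQLFit with robust estimation and glmQLFTest) in R 4.3.3, in 1 fit of 6 libraries with a term per group, two-sided, with Benjamini-Hochberg adjustment over all genes at 0.05. The study's own test was voomLmFit of limma. SE was obtained from the log2 fold change and the F statistic of each gene. Depths were 23194920 to 121623410 counts, and floors cover counting error only.

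All 41 members are named by role. Of other pathway genes, up to 3 per direction and comparison with the smallest p past the threshold are named. The members and lists were chosen with earlier results of these data known. Other settings were RLE factors, library size only, DESeq2 1.42.0, voomLmFit of limma 3.58.1, other filters (none, and a CPM of 1 in 2 libraries), no annotation filter, 2 groups only, a replicate block, each library left out, and edgeR's legacy quasi-likelihood method, the last chosen after seeing the data. The tests were also run on simulated counts, with the same spread per gene in all groups. This simulation therefore did not cover the larger difference between the control sgRNA replicates. Promoters are RefSeq sequences, and 35 of 41 members had one. Shared stretches were counted in GENCODE reference transcripts of the same build, whereas the authors counted reads on RefSeq genes. Protein sequences and DNA methylation were not used here.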

Additional observations from a re-analysis of the deposited data

How the results depend on the processing

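All 19 calls of members against wild type kept their direction in 16 alternatives each, and both calls of Gsta4 also stayed past the threshold. Of the 83 other member values 30 took the other sign in at least 1 alternative, and 5 passed the threshold with it. In control sgRNA against wild type the log2 fold change of Gpx4 was 0.017 with library size only. With each library left out in turn the values ran from -0.25 to 0.19 for Gpx4, -0.57 to 0.16 for Txnrd1, -0.39 to 0.16 for Prdx5, -0.21 to 0.36 for Pgd and -0.31 to 0.16 for Gstt2. Both ends came from fits that left out 1 of the control sgRNA libraries. The cause was not tested.

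A fit of only the 2 groups compared called 4 members in control sgRNA against wild type, of which 1 was lower, and 9 other pathway genes, beside 12.4% of all genes. In Cd4 sgRNA against wild type it called 24 members, 14 higher and 10 lower, and 43 other pathway genes, beside 61.7% of all genes. Members called ranged from 1 to 24 with each library left out in both comparisons with wild type, with 1 to 14 higher and 0 to 10 lower in each, and other pathway genes from 1 to 47 and from 1 to 44. The share of all genes called moved with them, from 0.911% to 64.2% with control sgRNA and from 0.636% to 59.7% with Cd4 sgRNA. Between the TETact-v3 groups they ranged from 0 to 22, with 0 to 11 in each direction, and other pathway genes from 0 to 45. The ends at 22 and 45 came without control sgRNA replicate 1, beside 61.3% of all genes, and without replicate 2 the values were 7 and 17, beside 24.9%.

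DESeq2 called 8 of the 34 tested members higher in Cd4 sgRNA against wild type, beside 1735 of all 12418 genes higher. In both directions it called 28.6% of all genes there. Between the TETact-v3 groups it called 3 members, 2 higher and 1 lower, and 5 other pathway genes, beside 11.3% of all genes. In Cd4 sgRNA against wild type voomLmFit called 13 other pathway genes, beside 17.3% of all genes, and did not call Gss. The replicate number as a block left 8, 9 and 0 members called, beside 24%, 16.4% and 0.0564% of all genes. It did not keep the calls of Keap1 in control sgRNA and Prdx3 in Cd4 sgRNA cells. The replicate numbers did not pair the libraries, with correlations of same-numbered deviations of 0.041, -0.0099 and -0.189. With 2 libraries per group, fold changes of genes near the floor, such as Gstm1 and Nqo1, are limited by depth.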
